A study of Mus musculus with 12 samples.

Results

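The heart burns mainly fatty acids, and a small set of regulators sets how much of the machinery for this is made. Ppara encodes the fatty acid receptor PPAR alpha, which binds DNA together with the retinoid receptor encoded by Rxra. Esrra, Esrrb and Esrrg encode the estrogen-related receptors (ERR alpha, beta and gamma), orphan nuclear receptors that act on genes of the citric acid cycle and the respiratory chain. Ppargc1a and Ppargc1b encode the coactivators PGC-1 alpha and PGC-1 beta, which bind these receptors rather than DNA, and Perm1 encodes a muscle protein that is induced by PGC-1 and ERR. Nrf1 encodes nuclear respiratory factor 1, a transcription factor of nuclear genes for mitochondrial proteins, and Tfam encodes the factor that packages and transcribes mitochondrial DNA. These 10 genes were taken by symbol from the 53882 rows of the table, each symbol matched 1 row, and all 10 passed the filter on low values.

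Heart RNA came from C57BL/6 mice aged 4 months, 3 per group in 4 groups, each mouse giving 1 library. All mice carried the CIP-KI-flox allele, a transgene at Rosa for CIP (the product of Mlip) behind a floxed stop. In transverse aortic constriction (TAC) a ligature puts a pressure load on the heart, and in sham surgery no ligature is tied. Ctrl-Sham and Ctrl-TAC mice lacked Cre recombinase, and CIP-OE-Sham and CIP-OE-TAC mice (KI_Sham and KI_TAC in the labels) also carried aMHC-Mer-Cre-Mer, a tamoxifen-induced Cre driven by a cardiomyocyte promoter. Tamoxifen was given 2 weeks, and hearts were taken 8 weeks, after surgery. Libraries are named as in the labels, by group and animal number. Since the controls had no Cre, an effect of CIP cannot be told apart from an effect of activated Cre. The tissue is bulk RNA, so that fewer cells of a type and less RNA per cell cannot be told apart either.

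The 12 libraries held 6990445 to 7704812 reads in genes. Mitochondrial genes took 44.6 to 47.0% of these in Ctrl-Sham and 33.9 to 43.0% in Ctrl-TAC hearts, which did not overlap, and 41.9 to 54.0% in CIP-OE hearts. Mlip, the transgene, stood at 823 to 1322 normalized counts in the 6 Ctrl libraries and at 1910.5 to 8232 in the 6 CIP-OE libraries. The 10 cardiomyocyte markers summed to 281510 to 308210 normalized counts in Ctrl-Sham and 230870 to 277040 in Ctrl-TAC hearts, and to 281060 to 337690 in CIP-OE-Sham and 240350 to 277360 in CIP-OE-TAC hearts, so that the sum was lower after TAC in both genotypes without overlap, and after TAC in controls 2 of 10 rose and 3 fell. Fibroblast markers summed to 6217 to 7174 in Ctrl-Sham and 10840 to 17483 in Ctrl-TAC hearts, and 5 of 9 rose. Endothelial markers summed to 4062 to 4184 in Ctrl-Sham and 5466 to 6853 in Ctrl-TAC hearts, and 6 of 7 rose. Over all genes tested 20.7% rose and 20.2% fell after TAC in controls. Of 8 macrophage markers 1 rose and 1 fell, and of 6 tested smooth muscle markers 3 rose and 2 fell, with sums of 7147 to 7726 in Ctrl-Sham and 5369 to 6366 in Ctrl-TAC hearts. Adipocyte markers summed to 2086 to 2370.5 in Ctrl-Sham, 2259 to 3914 in Ctrl-TAC and 2108 to 3601 in CIP-OE hearts, and of the 2 tested 0 passed. Of the 7 in this list, Lep and Ucp1 were listed at 0 throughout. The part of these cells and of the mitochondrial share in the results below was not tested. In GC content all 3 libraries of Ctrl-TAC lay outside the range of the other 9: the median log2 value of genes above 54.7% GC against those below 45.3% lay 0.57 to 0.90 above the average over libraries in Ctrl-TAC and between -0.54 and 0.020 in the other groups. Results that rest on Ctrl-TAC are therefore given, for the main ones, also after a correction for GC content, in which the trend of log2 values over GC content was removed from each library. After it, 0 of 10 cardiomyocyte markers were higher and 5 lower after TAC in controls. Of 9 fibroblast markers 3 were higher and of 7 endothelial markers 2, and 0 of either were lower. Of 8 macrophage markers 0 were higher and 2 lower, of 6 smooth muscle markers 1 and 1, and of 2 adipocyte markers 1 and 0. Over all genes 8.56% were then higher and 11.6% lower. Whether the GC difference between libraries is technical or belongs to the hearts after TAC cannot be told apart here.

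Levels were compared between genes per kilobase of exon, since longer transcripts collect more reads. In Ctrl-Sham hearts Perm1 was highest with 401 ± 37.8 normalized counts per kilobase (SD, n = 3), followed by Ppargc1a with 179 ± 12.9 (SD, n = 3). Esrrg with 79.3 ± 4.15 (SD, n = 3) and Esrra with 72.9 ± 14.5 (SD, n = 3) overlapped in range and did not differ beyond their spread. The same held for Rxra (59.9 ± 2.02, SD, n = 3) and Tfam (58.6 ± 3.82, SD, n = 3), and Tfam met Ppara (49.8 ± 4.95, SD, n = 3) at the edge of its range. Below them came Esrrb (34.3 ± 2.86, SD, n = 3), Ppargc1b (22.4 ± 1.24, SD, n = 3) and Nrf1 (2.91 ± 0.507, SD, n = 3), none of which overlapped with its neighbour. Perm1, Ppargc1a, Esrrb, Ppargc1b and Nrf1 held the ranks 1, 2, 8, 9 and 10 in each of the 4 groups, and the order changed among the other genes, with Esrra at rank 3 in Ctrl-TAC and Rxra at rank 3 in both CIP-OE groups. PGC-1 alpha RNA thus stood above PGC-1 beta RNA, and RNA of ERR gamma and ERR alpha above that of ERR beta, in every group. Nrf1 was counted with only 23 to 67 reads per library, the least of the 10.

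**Figure D1:**
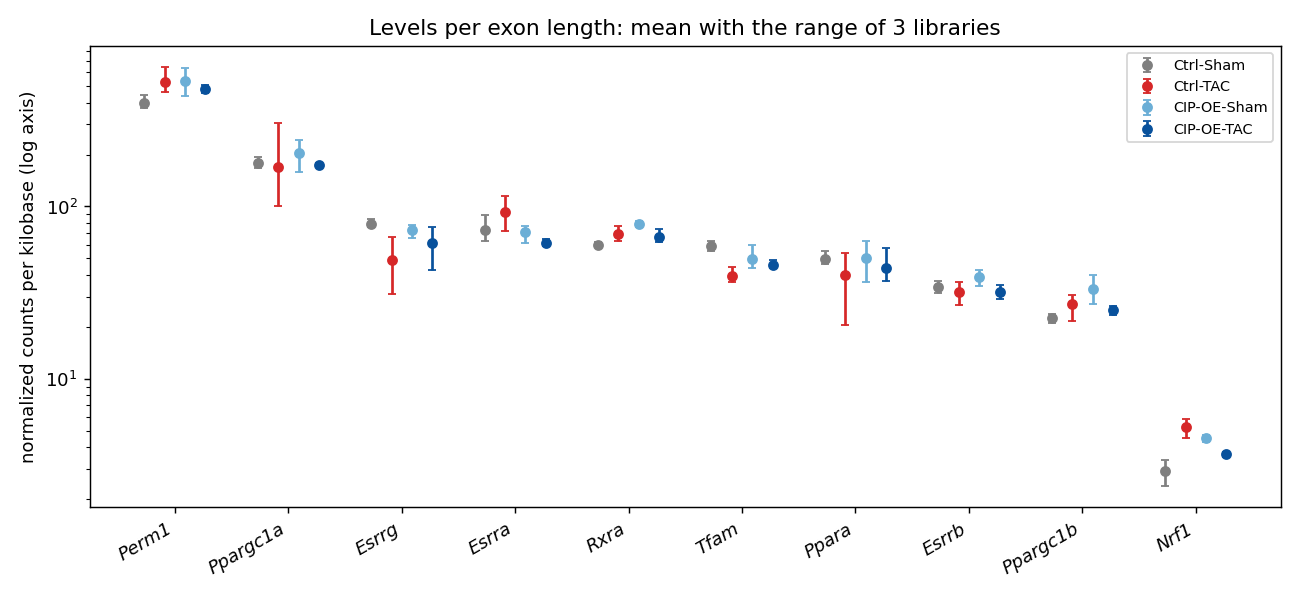
Normalized counts per kilobase of exon on a log axis for each regulator and group, as the mean of 3 libraries with bars from the lowest to the highest library. By mean, Perm1 and Ppargc1a stand above the other genes and Nrf1 below them in each group, and the Ppargc1a bar of Ctrl-TAC spans 101 to 303.

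The promoters of Ppara, Tfam and Esrrg are shown because each holds a motif of a factor whose RNA is measured here. RefSeq promoter windows of GRCm38.p6, from 250 bases before to 50 bases after a transcription start, were found for 9 of the 10 genes (15 windows, since some genes have several starts), but not for Ppargc1b. Each window was searched on both strands for TNAAGGTCA (ERR), GGTCAAAGG (core of the PPAR direct repeat), GCGCATGCG (NRF1), CCGGAAG (GABP), CTATTTNTA (MEF2) and CACGTG (E-box). Matches were found in 3 of the 15 windows, and the capitals below mark them in the 250 bases before the start. The Ppara window on chromosome 15 (plus strand, 85735526 to 85735775) holds an NRF1 motif on either strand, overlapping by all but 1 base, from 31 to 22 bases before the start. The Tfam window on chromosome 10 (minus strand, 71238045 to 71238294) holds a GABP motif from 47 to 41 bases before the start, and the first Esrrg window on chromosome 1 (plus strand, 187608756 to 187609005) a MEF2 motif from 22 to 14 bases before it.
Ppara: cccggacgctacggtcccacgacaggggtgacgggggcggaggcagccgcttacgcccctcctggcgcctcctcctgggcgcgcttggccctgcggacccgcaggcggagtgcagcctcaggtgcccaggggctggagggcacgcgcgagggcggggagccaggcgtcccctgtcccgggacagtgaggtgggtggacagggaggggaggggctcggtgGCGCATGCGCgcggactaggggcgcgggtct
Tfam: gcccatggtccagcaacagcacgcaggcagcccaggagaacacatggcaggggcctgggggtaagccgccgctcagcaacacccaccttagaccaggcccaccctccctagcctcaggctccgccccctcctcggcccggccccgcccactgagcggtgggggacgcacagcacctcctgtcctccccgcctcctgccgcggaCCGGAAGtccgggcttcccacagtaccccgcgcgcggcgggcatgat
Esrrg: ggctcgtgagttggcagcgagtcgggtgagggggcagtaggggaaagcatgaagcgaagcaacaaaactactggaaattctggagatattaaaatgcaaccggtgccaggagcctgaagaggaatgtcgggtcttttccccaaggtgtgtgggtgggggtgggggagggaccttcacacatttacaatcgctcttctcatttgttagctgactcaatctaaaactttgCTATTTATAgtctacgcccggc
Of 32841 RefSeq mouse windows of this length, 1.75% held the NRF1 motif, 8.86% the GABP motif and 1.34% the MEF2 motif. The ERR, PPAR and E-box motifs, in 1.28%, 0.344% and 7.15% of all windows, were in none of the 15. A match is a string of letters in a window of 300 bases and was not tested for binding.

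In control hearts TAC was followed by higher Nrf1 RNA and lower Tfam and Esrrg RNA, while the other 7 genes did not pass the test. Differences were tested on log2(value + 1) with limma over 13392 genes, and a gene passed at a Benjamini-Hochberg adjusted p under 0.05. This put 1 regulator higher, where 20.7% of all genes tested were higher, and 2 lower, where 20.2% of all genes were lower, so that the share of regulators that passed was not above the background. Their median log2 fold change was 0.040, beside 0.0022 over all genes tested. On the recovered reads edgeR and DESeq2 each passed 4 regulators. Of all 13392 genes edgeR called 2872 higher and 2722 lower, and DESeq2 2715 and 2536, so that this was not set apart from the background either.

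Nrf1 stood at 34.8, 30.5 and 24.4 normalized counts in Ctrl-Sham and at 60.0, 54.3 and 46.9 in Ctrl-TAC hearts, 46.8, 44.3 and 48.5 in CIP-OE-Sham and 36.0, 37.5 and 38.5 in CIP-OE-TAC hearts. All Ctrl-TAC libraries thus lay above all Ctrl-Sham libraries. The log2 fold change was 0.83 (standard error 0.217, adjusted p = 0.00477, limma), and after GC correction it was 0.72 (adjusted p = 0.0200, limma). It passed in 24 of 24 alternative fits. Nrf1 lies on chromosome 6 from 30047988 to 30153458 of GRCm38, and at 51.1% the GC content of its transcript was near the middle of all genes, where the median log2 fold change was 0.063.

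Tfam stood at 255, 279 and 246 normalized counts in Ctrl-Sham and at 165, 197 and 162 in Ctrl-TAC hearts, with no overlap. The CIP-OE-Sham libraries held 266, 196 and 199, and the CIP-OE-TAC libraries 199, 195 and 216. After TAC in controls the log2 fold change of Tfam was -0.57 (standard error 0.143, adjusted p = 0.00344, limma). Tfam (chromosome 10, 71225464 to 71238280) has a GC content of 44.9%, and genes of like GC content, within 1 percentage point, had a median log2 fold change of -0.36. After GC correction the log2 fold change of Tfam was -0.25 (adjusted p = 0.198, limma), which did not pass.

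Esrrg stood at 474, 481 and 522 normalized counts in Ctrl-Sham and at 193, 307 and 414 in Ctrl-TAC hearts, so that the groups did not overlap but the TAC libraries were far apart. In CIP-OE-Sham hearts it held 462, 408 and 483, and in CIP-OE-TAC hearts 403, 472 and 264. Its log2 fold change after TAC in controls was -0.76 (standard error 0.246, adjusted p = 0.0257, limma), the largest fall of the 10. With 42.5% GC, Esrrg (chromosome 1, 187608791 to 188214885) lay where the median of like genes was -0.47, and after GC correction its log2 fold change was -0.29 (adjusted p = 0.425, limma). It also missed the threshold without Ctrl_Sham_4010, Ctrl_Sham_4011 or Ctrl_Sham_4033 (adjusted p = 0.0538, 0.0540 and 0.0781, limma), without Ctrl_TAC_3586 (-0.46, adjusted p = 0.0774) and without Ctrl_TAC_3800 (adjusted p = 0.0512), and passed in 18 of 25 alternative fits.

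Esrra, Rxra and Esrrb, which have GC-rich transcripts, did not pass in controls but were lower once GC content was taken out. After that correction they were the only regulators lower, where 11.6% of all genes were lower. Nrf1 alone was higher then, where 8.56% of all genes were higher. Esrra stood at 278, 393 and 288 normalized counts in Ctrl-Sham and at 504, 315 and 397 in Ctrl-TAC hearts, with overlapping groups. Its change was 0.33 on the log2 scale (standard error 0.164, adjusted p = 0.110, limma), and it passed without Ctrl_Sham_4011 (0.49, adjusted p = 0.0321) and without Ctrl_TAC_3800 (0.50, adjusted p = 0.0244). Esrra (chromosome 19, 6910977 to 6921813) has a GC content of 61.8%, above 98.1% of genes, and the 261 genes of like GC content had a median log2 fold change of 0.89. After GC correction Esrra stood at -0.63 (adjusted p = 0.00250, limma). Rxra (chromosome 2, 27676440 to 27762957) held 339.6, 319 and 323 normalized counts in Ctrl-Sham and 343, 368 and 422 in Ctrl-TAC hearts, which did not overlap. It moved from 0.20 (adjusted p = 0.197) to -0.41 (adjusted p = 0.0264, limma) under the correction. Esrrb (chromosome 12, 86361117 to 86521628) held 224, 208 and 189.8 in Ctrl-Sham and 163, 221 and 191 in Ctrl-TAC hearts, and moved from -0.12 (adjusted p = 0.528) to -0.55 (adjusted p = 0.0126, limma). For Esrra and Rxra the direction of the change after TAC therefore depends on whether the libraries are compared as they stand or relative to genes of like GC content.

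Ppargc1a (chromosome 5, 51454250 to 51567726) had the widest spread. It stood at 1164, 1269 and 1101.5 normalized counts in Ctrl-Sham hearts, and in Ctrl-TAC hearts at 669.6 and 665 in Ctrl_TAC_3586 and Ctrl_TAC_3800 but at 1999 in Ctrl_TAC_4231, the highest value of all 12 libraries. Both of the lower Ctrl-TAC libraries lay below every library of the other groups, where CIP-OE-Sham held 1372, 1609.9 and 1048 and CIP-OE-TAC held 1175, 1113 and 1168. With all libraries the log2 fold change after TAC in controls was -0.29 (standard error 0.369, adjusted p = 0.564, limma), with a 95% interval from -1.12 to 0.54. Without Ctrl_TAC_4231 it was -0.82 (adjusted p = 3.09e-04, limma), and with all libraries after GC correction it was 0.22 (adjusted p = 0.724, limma). A single library thus decided whether Ppargc1a was called lower, and no label sets that library apart.

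The remaining genes gave smaller differences. Perm1 (chromosome 4, 156215868 to 156221307) held 1463.5, 1734 and 1498 normalized counts in Ctrl-Sham and 1833, 1798 and 2519 in Ctrl-TAC hearts, with no overlap. Its log2 fold change was 0.38 (standard error 0.150, adjusted p = 0.0512, limma), which passed with edgeR (adjusted p = 0.0457) and DESeq2 (adjusted p = 0.0366) and stood at 0.086 (adjusted p = 0.733, limma) after GC correction. It also passed without any 1 of Ctrl_Sham_4011, Ctrl_TAC_3586, Ctrl_TAC_3800, KI_Sham_3644 and KI_Sham_3737 (adjusted p = 0.0335 to 0.0462, limma). Ppara (chromosome 15, 85734983 to 85802819) held 178, 213 and 182 in Ctrl-Sham and 78.5, 176 and 205 in Ctrl-TAC hearts, with 140.4, 243 and 197 in CIP-OE-Sham and 147, 219 and 141 in CIP-OE-TAC hearts. Its log2 fold change after TAC in controls, -0.42, had a 95% interval from -1.14 to 0.29 (adjusted p = 0.323, limma), and it was -0.57 (adjusted p = 0.267) after GC correction. Ppargc1b (chromosome 18, 61298136 to 61400431) held 94.3, 84.5 and 89.1 in Ctrl-Sham and 85.9, 122 and 119 in Ctrl-TAC hearts, which gave a log2 fold change of 0.27 (adjusted p = 0.229, limma), and of -0.40 (adjusted p = 0.132) after GC correction.

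**Figure D2:**
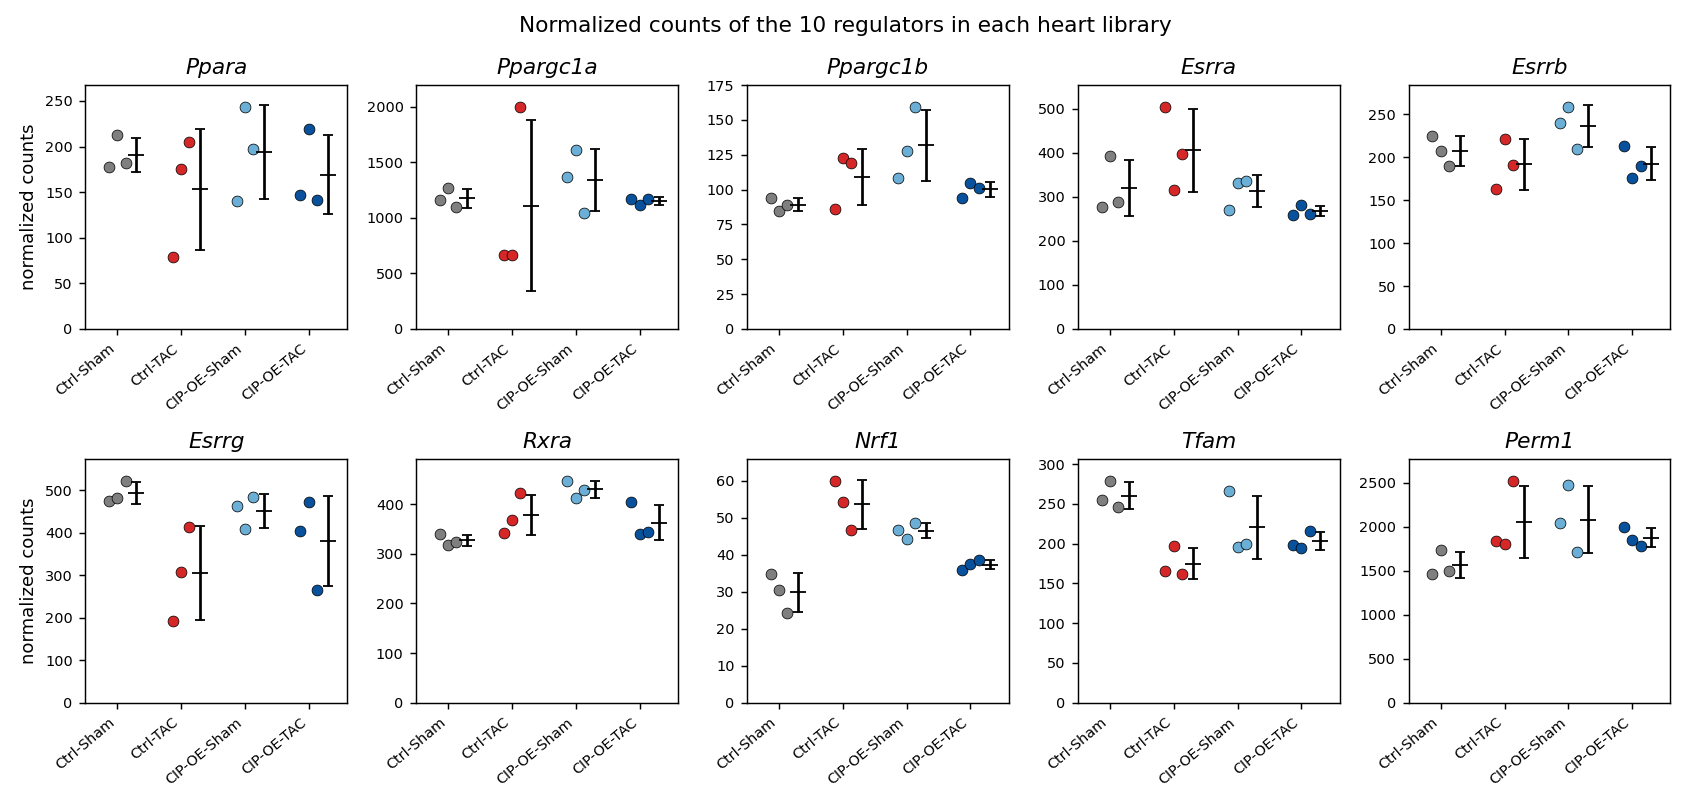
Normalized counts of each regulator in the 12 heart libraries, as 1 point per library with the mean and SD of each group of 3 beside it, on axes from 0. Nrf1 is higher and Tfam and Esrrg are lower in all Ctrl-TAC than in all Ctrl-Sham libraries, and 1 Ctrl-TAC library of Ppargc1a stands at 1999 beside 669.6 and 665.

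When overexpressing hearts under pressure load were compared with control hearts under the same load (CIP-OE-TAC against Ctrl-TAC), Esrra was lower, at 0.10 after GC correction and thus in the other direction there, and no other regulator passed. Endothelial markers were lower there too, in 3 of 7 genes, beside 9.27% of all genes. After GC correction 0 of the 7 were lower, beside 1.52% of all genes, and their part in the result was not tested. Of the regulators 0 were higher, beside 9.11% of all genes tested, and 1 was lower, beside 9.27%, with a median log2 fold change of -0.020 (0.0067 over all genes). At an unadjusted p under 0.05 in limma 2 regulators, Esrra and Nrf1, were lower, beside 16.1% of all genes, and 0 higher, beside 17.1%. With edgeR and DESeq2 1 regulator passed in each. Of all 13392 genes edgeR called 1202 higher and 1363 lower there, and DESeq2 1114 and 1319. Esrra held 259.9, 282 and 262 normalized counts in CIP-OE-TAC hearts, below all 3 Ctrl-TAC libraries, and in CIP-OE-Sham hearts it held 271, 331 and 337. The log2 fold change was -0.57 (standard error 0.164, adjusted p = 0.0214, limma). Genes of like GC content had a median of -0.66, and after GC correction Esrra stood at 0.10 (adjusted p = 0.760, limma). It missed the threshold without Ctrl_TAC_3586 (log2 fold change -0.40, adjusted p = 0.114, limma) and without KI_TAC_3577 (adjusted p = 0.0624), KI_TAC_3579 (adjusted p = 0.0508) or KI_TAC_3587 (adjusted p = 0.0598). With the variance trend of limma left out it missed as well (adjusted p = 0.0728), and it passed in 18 of 25 alternative fits.

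Nrf1 was 0.51 lower on the log2 scale in CIP-OE-TAC than in Ctrl-TAC hearts, without overlap, and did not pass (standard error 0.217, adjusted p = 0.108, limma). After GC correction it stood at -0.44 (adjusted p = 0.302), and of 24 alternative fits it passed in 1, with the variance trend left out (adjusted p = 0.0478). Ppargc1a had a log2 fold change of 0.26 (adjusted p = 0.671, limma), which without Ctrl_TAC_4231 became 0.79 (adjusted p = 0.00190, limma) and without Ctrl_TAC_3586 or Ctrl_TAC_3800 lay at -0.0022 or -0.0067. After GC correction it was -0.12 (adjusted p = 0.917). For Tfam the value was 0.22 (95% interval -0.077 to 0.52) and for Esrrg 0.34 (95% interval -0.19 to 0.87), so that neither a return to the level of sham hearts nor its absence was resolved, and after GC correction these values were -0.020 and 0.0017. Apart from Esrra and Nrf1, the intervals of the regulators all included 0, and the widest was that of Ppargc1a, from -0.57 to 1.09.

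Overexpression without TAC called no regulator. In CIP-OE-Sham against Ctrl-Sham hearts 0 passed in either direction with limma, edgeR or DESeq2, where in limma 0.0149% of all genes were higher and 0.00747% lower. DESeq2 gave no adjusted p for Nrf1 here. Mlip, the transgene itself, also missed the threshold here, with 1.79 on the log2 scale (adjusted p = 0.116, limma). The 0 calls therefore do not show that the regulators were unchanged. DESeq2 called 40 of all 13392 genes higher and 27 lower. A limma fit of only the compared groups called 29 and 28, with 0 regulators among them. At an unadjusted p under 0.05 in limma 4 regulators were higher, beside 5.98% of all genes, and 0 lower, beside 5.24%: Nrf1 at a log2 fold change of 0.64 (adjusted p = 0.269), Ppargc1b at 0.54 (adjusted p = 0.251), Perm1 at 0.40 (adjusted p = 0.321) and Rxra at 0.39 (adjusted p = 0.235). After GC correction these 4 stood at 0.61, 0.40, 0.34 and 0.27 (adjusted p = 0.329 to 0.520, limma). Rxra held 339.6, 319 and 323 normalized counts in Ctrl-Sham and 447, 413 and 429 in CIP-OE-Sham hearts, without overlap. Nrf1 and Ppargc1b did not overlap between these groups either, with Ppargc1b at 108, 128 and 159 in CIP-OE-Sham hearts. Perm1 overlapped, with 2044, 2473 and 1715. The share of all genes that did not overlap between these groups was not counted, and 0 of the 4 passed.

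After TAC in CIP-OE mice 0 regulators passed in either direction with limma, edgeR or DESeq2. In this comparison, CIP-OE-TAC against CIP-OE-Sham, 0.754% of all genes were higher and 0.508% lower, and 1 regulator, Ppargc1b, reached an unadjusted p under 0.05 in limma, with a log2 fold change of -0.38 (adjusted p = 0.380). At that threshold 6.74% of all genes were higher and 5.89% lower. All 10 log2 fold changes were negative, from -0.10 for Tfam to -0.38, with a median of -0.23 beside 0.0034 over all genes. In CIP-OE-TAC against Ctrl-Sham hearts, which share no Ctrl-TAC library, 0 regulators passed with any of the 3 tools, where 3.23% of all genes were higher and 2.39% lower. Tfam alone had an unadjusted p under 0.05 in limma there, at -0.35 (adjusted p = 0.159) and without overlap, where 11.0% of all genes were higher and 9.51% lower at that threshold. After GC correction Esrra passed at -0.52 (adjusted p = 0.0304, limma), from -0.24 (adjusted p = 0.443) before it. These comparisons share groups with those above, and their values are set side by side without a test between them.

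**Figure D3:**
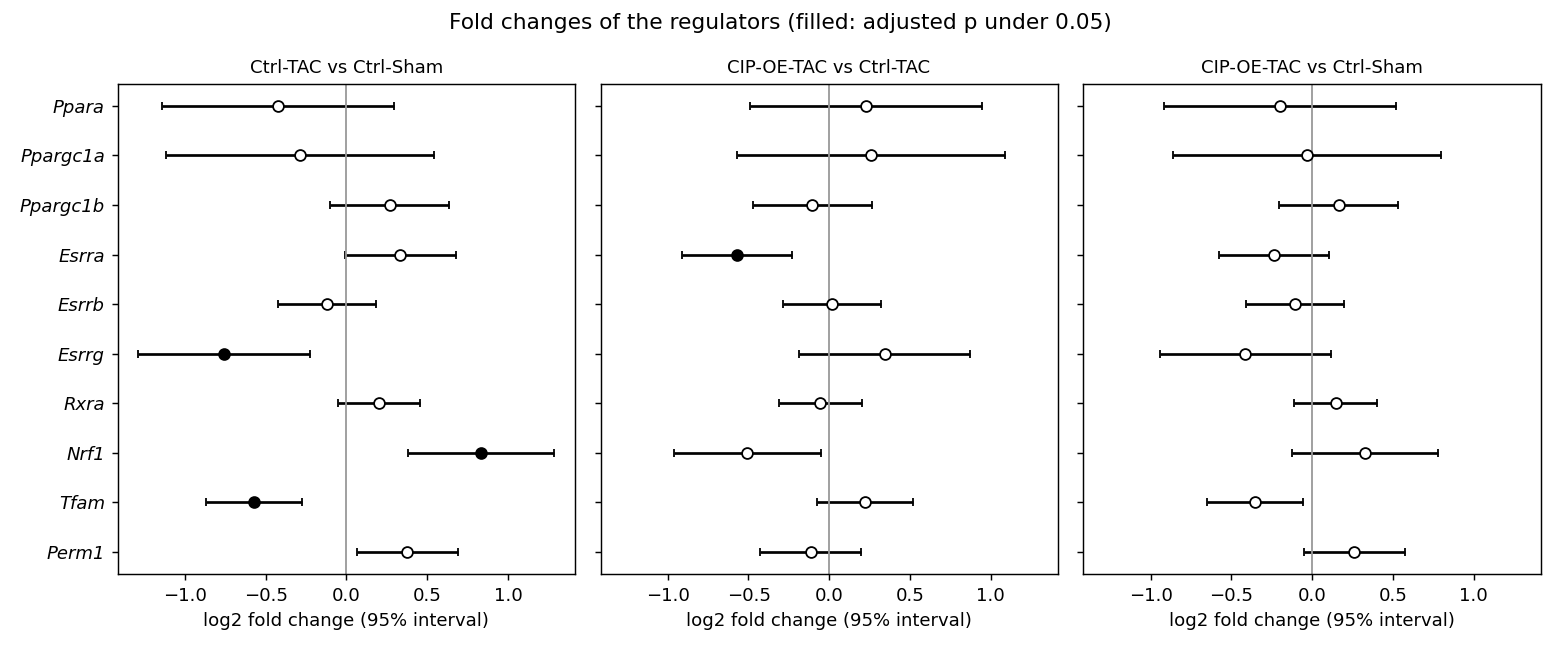
Log2 fold changes of the 10 regulators with 95% intervals from limma in 3 comparisons, with filled points for those that passed. Esrrg (-0.76), Tfam (-0.57) and Nrf1 (0.83) passed in Ctrl-TAC against Ctrl-Sham, Esrra (-0.57, and 0.10 after GC correction) in CIP-OE-TAC over Ctrl-TAC, and no gene in CIP-OE-TAC against Ctrl-Sham.

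Before GC correction, the change after TAC passed as different between genotypes for Nrf1. The interaction, which is the log2 change after TAC in CIP-OE mice less that in controls, was -1.14 for Nrf1 (standard error 0.307, adjusted p = 0.0225, limma). Nrf1 rose by 0.83 in controls and had a value of -0.31 in CIP-OE hearts, which did not pass. Between the sham groups Nrf1 stood at 0.64 in CIP-OE against Ctrl hearts (adjusted p = 0.269, limma), and between the TAC groups at -0.51 (adjusted p = 0.108, limma). Neither of these passed, and the interaction holds both differences. In this test 1 regulator was lower, where 6.18% of all genes were lower, and 0 were higher, where 5.43% were. With edgeR and DESeq2 1 regulator passed in each. Of all 13392 genes edgeR called 742 higher and 822 lower there, and DESeq2 743 and 882. At an unadjusted p under 0.05 in limma 1 was higher, beside 14.7% of all genes, and 5 were lower, beside 14.6%. The call of Nrf1 was lost after GC correction, at -1.05 (adjusted p = 0.124, limma), and it passed in 16 of 23 alternative fits. It was also lost without Ctrl_Sham_4033 (-1.01, adjusted p = 0.0568, limma), Ctrl_TAC_3586 (adjusted p = 0.0513), KI_Sham_3737 (adjusted p = 0.0501) or KI_TAC_3579 (adjusted p = 0.0508). Rxra (-0.45, adjusted p = 0.0936) and Ppargc1b (-0.65, adjusted p = 0.0931, limma) did not pass, and after GC correction they stood at 0.086 and -0.056 (adjusted p = 0.956 for Ppargc1b). Tfam (0.47, adjusted p = 0.127, limma, and 0.14 after GC correction) was the gene with an unadjusted p under 0.05 in the other direction. Ppargc1b passed without Ctrl_TAC_3586 (-0.81, adjusted p = 0.0432), Esrra without Ctrl_TAC_3800 (-0.72, adjusted p = 0.0448) and Ppargc1a without Ctrl_TAC_4231 (0.62, adjusted p = 0.0467, limma), and with all libraries after GC correction Esrra stood at 0.31 and Ppargc1a at -0.42.

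**Figure D4:**
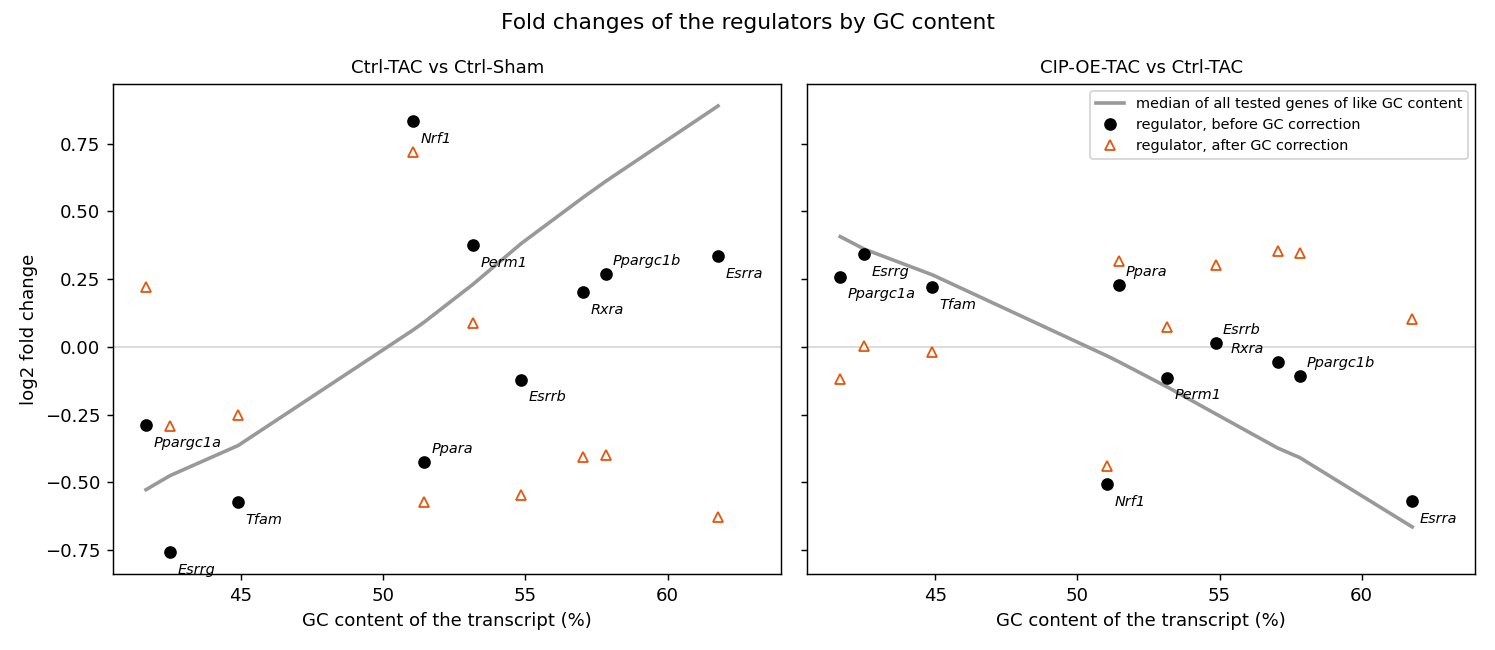
Log2 fold change of each regulator (black) against the GC content of its transcript, with the value after GC correction (open triangles) and the median of all tested genes within 1 percentage point of GC content (grey line). The line runs from -0.53 to 0.89 in the first comparison and from 0.41 to -0.66 in the second, and Esrra lies at its GC-rich end while Nrf1 lies off the line at 51.1%.

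The other receptors, coactivators and respiratory factors of the same family went in both directions after TAC in controls. There were 3 of 9 that rose and 1 that fell (median 0.15), beside 20.7% and 20.2% of all genes. Ppard, for PPAR delta, went from a mean of 149 to 291 normalized counts (log2 fold change 0.99, adjusted p = 7.16e-05, limma), Rxrb, for another retinoid receptor, rose by 0.81 (adjusted p = 3.54e-04) and Pprc1, for another PGC-1 coactivator, by 0.80 (adjusted p = 0.00548). Gabpa, the DNA-binding subunit of GABP, whose motif stands in the Tfam promoter printed above, fell by 0.79 (adjusted p = 1.05e-04, limma), and Gabpb1, its partner, had a value of -0.19 (adjusted p = 0.455). Rxrg (-0.33, adjusted p = 0.153), Pparg (0.17, adjusted p = 0.528), Hcfc1 (0.15, adjusted p = 0.394) and Nfe2l2 (-0.11, adjusted p = 0.537) did not pass. After GC correction 0 were higher, beside 8.56% of all genes, and 1 was lower, beside 11.6%, Rxrg at -0.73 (adjusted p = 0.00745, limma). The 4 calls above were thus lost, with Rxrb at -0.13. Between the TAC groups, CIP-OE-TAC against Ctrl-TAC, 1 was higher and 2 were lower, beside 9.11% and 9.27% of all genes. Gabpa was higher by 0.58 (adjusted p = 0.00575, limma) and Ppard (-0.66, adjusted p = 0.00793) and Rxrb (-0.59, adjusted p = 0.0126) were lower. After GC correction 0 of the 9 passed there and Rxrb stood at 0.067. Rxrg was lower in CIP-OE-TAC than in Ctrl-Sham hearts, by -0.63 (adjusted p = 0.0448, limma), and passed there after GC correction too, at -0.76 (adjusted p = 0.0215).

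Of 25 genes that PPAR alpha is known to activate, 13 fell and 2 rose after TAC in controls, with a median log2 fold change of -0.54, where 20.2% of all genes fell and 20.7% rose. After GC correction 16 fell, beside 11.6% of all genes, and 0 rose, beside 8.56%, and 12 of the 16 were among the 13. Lpl, which frees fatty acids from lipoproteins, went from a mean of 46652 to 23290 normalized counts (log2 fold change -1.0, adjusted p = 7.10e-06, limma, and -0.59, adjusted p = 0.00133, after GC correction). Acaa2, the last enzyme of mitochondrial beta-oxidation, went from 3045 to 1501 (-1.04, adjusted p = 1.75e-05, limma), and after GC correction it stood at -1.30 (adjusted p = 6.44e-06). Cd36, the fatty acid transporter, fell by 0.55 (adjusted p = 0.00564, limma), which became 0.12 (adjusted p = 0.575) after GC correction. Plin5, a lipid droplet protein, rose by 0.72 (adjusted p = 0.00223, limma), and its call was lost after GC correction (-0.027, adjusted p = 0.931). Acot1, an acyl-CoA thioesterase of low level, gave the point lowest in the plot of the lists, from a mean of 28.0 to 5.22 normalized counts (-2.28, adjusted p = 1.29e-04, limma, and -2.58, adjusted p = 1.48e-04, after GC correction). Lower genes of this list thus stood beside a Ppara RNA whose change was not resolved.

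Of 23 genes that ERR receptors act on, most of them in the citric acid cycle and the respiratory chain, and which include Esrra and Perm1 and share Acadm with the PPAR list, 11 fell and 1 rose after TAC in controls, with a median of -0.33, beside the same 20.2% and 20.7% of all genes. After GC correction 13 fell (11.6% of all genes) and 1 rose (8.56%), and 10 of the 13 were among the 11 before it. Sucla2, a subunit of succinyl-CoA ligase, went from 3998 to 1920 normalized counts (-1.06, adjusted p = 1.59e-06, limma, and -0.63, adjusted p = 3.11e-04, after GC correction) and Sdha, a subunit of complex II, from 7305 to 3750 (-0.97, adjusted p = 1.14e-05, and -0.90, adjusted p = 7.44e-05). Slc25a4, the adenine nucleotide carrier, fell by 0.54 (adjusted p = 0.00366, limma) and Atp5b, a subunit of ATP synthase, by 0.42 (adjusted p = 0.0115), and both passed after GC correction. Vegfa was the gene that rose, by 0.78 (adjusted p = 2.13e-04, limma).

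These targets went both ways in CIP-OE-TAC against Ctrl-TAC. Of the PPAR targets 4 were higher and 3 lower (median 0.18), and of the ERR targets 4 were higher and 3 lower (median 0.053), beside 9.11% and 9.27% of all genes. Lpl was higher by 0.51 (adjusted p = 0.00994, limma), Sucla2 by 0.51 (adjusted p = 0.00557), Ndufs1, a subunit of complex I, by 0.52 (adjusted p = 0.00588) and Sdha by 0.55 (adjusted p = 0.00703), and Plin5 was lower by -0.76 (adjusted p = 0.00590). The calls of Lpl (0.21), Sucla2 (0.20), Ndufs1 (0.29) and Plin5 (-0.25) were lost after GC correction (adjusted p = 0.396, 0.354, 0.174 and 0.501, limma). There 1 PPAR target was higher and 0 lower, and of the ERR targets 1 was higher and 1 lower, beside 1.46% of all genes higher and 1.52% lower. Sdha was the higher ERR target, at 0.48 (adjusted p = 0.0402, limma). Against Ctrl-Sham, CIP-OE-TAC hearts had 7 of 25 PPAR targets and 7 of 23 ERR targets lower and 0 higher, with medians of -0.37 each, where 2.39% of all genes were lower. After GC correction 9 and 11 were lower and 0 higher, beside 2.66% of all genes lower and 2.19% higher. Acaa2 stood at -0.87 there (adjusted p = 0.00185, limma) and Sucla2 at -0.55 (adjusted p = 0.00823). Against CIP-OE-Sham hearts 3 PPAR targets were lower, among them Acaa2 at -0.75 (adjusted p = 0.0123, limma) and Slc27a1, a fatty acid transport protein, at -1.04 (adjusted p = 8.08e-04), beside 0.508% of all genes, and 0 ERR targets passed in either direction.

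Of 19 regulators upstream of PGC-1, 10 fell and 4 rose after TAC in controls, with a median of -0.47, beside 20.2% and 20.7% of all genes. The list holds several genes for MEF2 factors, and a MEF2 motif lies in the first Esrrg promoter. Mef2a went from 1884 to 918 normalized counts (-1.04, adjusted p = 2.93e-05, limma), and passed after GC correction at -0.55 (adjusted p = 0.00710). Mef2c fell by 0.71 (adjusted p = 6.18e-04, limma) and Mef2d rose by 0.47 (adjusted p = 0.00419). Both calls were lost after GC correction, at -0.15 (adjusted p = 0.436, limma) and 0.029 (adjusted p = 0.890). Sirt1, a deacetylase of PGC-1 alpha, fell by 0.92 (adjusted p = 9.06e-05, limma, and -0.55, adjusted p = 0.00828, after GC correction), and Ppp3ca, the catalytic subunit of calcineurin, by 0.70 (adjusted p = 2.61e-04, and -0.42, adjusted p = 0.0197, after it). Prkaa2, the AMPK subunit of muscle, fell by 0.87 (adjusted p = 8.75e-04, limma), and its call was lost after GC correction (-0.31, adjusted p = 0.185). After the correction 5 fell and 0 rose, beside 11.6% and 8.56% of all genes. Between the TAC groups 8 were higher and 2 lower (median 0.27), beside 9.11% and 9.27% of all genes, Mef2a by 0.62 (adjusted p = 0.00912, limma), and 0 of the 19 passed after GC correction.

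Of 13 corepressors and coactivators, 3 rose and 4 fell after TAC in controls, beside 20.7% and 20.2% of all genes. After GC correction 0 rose and 2 fell, beside 8.56% and 11.6% of all genes. Smarcd3, a chromatin remodelling subunit, gave 0.48 (adjusted p = 0.00823, limma) after TAC in controls and -0.46 (adjusted p = 0.0261) between the TAC groups, and after GC correction it stood at -0.28 and 0.067, neither of which passed. Ncoa2, a coactivator, fell by 0.61 after TAC in controls (adjusted p = 0.00104, limma, and -0.51, adjusted p = 0.00593, after GC correction), and the most abundant of the list, Lpin1 (-0.20, adjusted p = 0.235) and Ncor1 (-0.29, adjusted p = 0.0659), did not pass. Between the TAC groups 1 was higher and 2 lower, beside 9.11% and 9.27% of all genes.

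Of 15 tested genes that maintain and transcribe mitochondrial DNA beside Tfam, 3 rose and 2 fell after TAC in controls, shares not above the 20.7% and 20.2% of all genes. Mterf3, a regulator of mitochondrial transcription and ribosome assembly, fell by 0.65 (adjusted p = 7.32e-04, limma), the protease gene Lonp1 rose by 0.58 (adjusted p = 7.35e-04) and Polrmt, the mitochondrial RNA polymerase, rose by 0.46 (adjusted p = 0.0337). After GC correction these were -0.19, -0.043 and -0.44, and Polrmt passed in the other direction (adjusted p = 0.0438, limma). Mrpl12 had a value of -0.047 (adjusted p = 0.877, limma), and of -0.57 (adjusted p = 0.0273) after GC correction. Between the TAC groups Mterf3 was higher by 0.41 (adjusted p = 0.0385, limma, and 0.066 after GC correction) and Polrmt lower by -0.50 (adjusted p = 0.0439), which was 0.13 after GC correction.

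**Figure D5:**
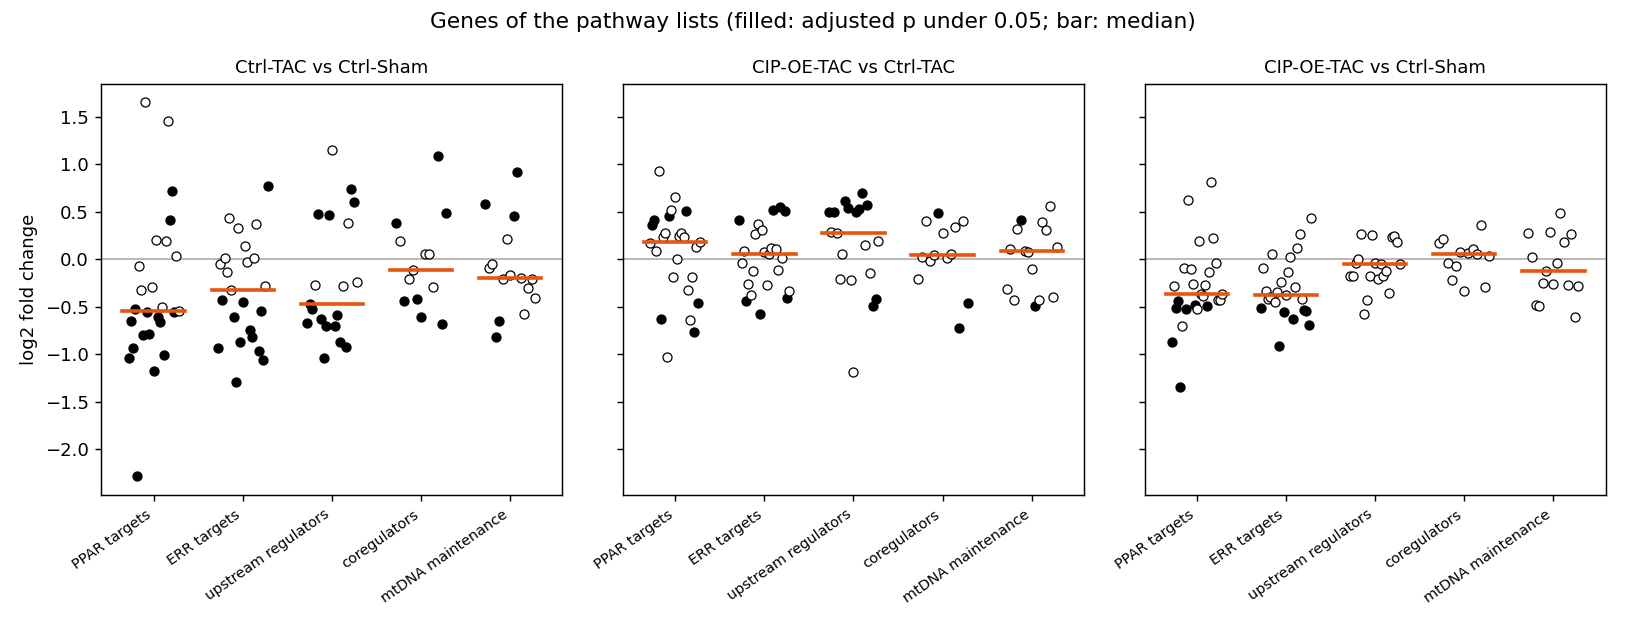
Log2 fold changes of the genes in 5 pathway lists in 3 comparisons, 1 point per gene, filled where the gene passed, with the median of each list as a bar. In Ctrl-TAC against Ctrl-Sham the medians of PPAR targets (-0.54) and ERR targets (-0.33) lie below 0, and in CIP-OE-TAC against Ctrl-TAC they lie at 0.18 and 0.053.

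Among the regulators themselves, Ppargc1a and Perm1 were most alike within groups. After the mean of each group was taken out, the log2 values of both had a Pearson correlation of 0.86 over the 12 libraries, 0.93 without Ctrl_TAC_4231 and 0.93 without Ctrl_TAC_3800 and Ctrl_TAC_4231. In 4 of 4 groups the same library was highest in both genes. Before the group means were taken out the correlation was 0.55, and Perm1 did not fall in Ctrl_TAC_3586 and Ctrl_TAC_3800, where Ppargc1a was lowest. This pair was picked from 45 pairs after their values were seen and is a description.

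Over the 12 libraries the genes most like each regulator, by Pearson correlation of log2 values, were Huwe1 for Ppara (0.95), Fry for Ppargc1a (0.91), Kbtbd13 for Ppargc1b (0.86), Endog for Esrra (0.94), Ehmt1 for Esrrb (0.88), Lrba for Esrrg (0.94), Adipor1 for Rxra (0.92), Abhd4 for Nrf1 (0.93), Ttbk2 for Tfam (0.94) and Mafg for Perm1 (0.92). The next 2 of each were Ssh2 and Srl for Ppara, Jrk and Tmf1 for Ppargc1a, Nectin2 and Arhgap44 for Ppargc1b, and Oxld1 and Vcp for Esrra. For Esrrb they were Nr2c2 and Kat5, for Esrrg Opa1 and Bche, for Rxra Tnpo2 and Drosha, for Nrf1 Numa1 and Aamp, for Tfam Gal3st2c and Fgfr1op, and for Perm1 Mapkapk2 and Lama5, with correlations of 0.83 to 0.94. These correlations are over libraries that share the 4 groups and the GC difference of Ctrl-TAC, and the other 9 regulators were left out of the search.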

How the data were processed

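RNA of mouse hearts was sequenced at BGI, 12 libraries in 4 groups of 3, grouped by the submitters' labels. The deposited values are a signal: each is a read count per gene that the authors divided by a factor for its library (normalized counts). STAR, featureCounts and DESeq2 with mm10 are given in the study's methods, while HISAT2 (2.0.4), DESeq2 (1.4.5), StringTie (2.1.4) and GRCm38 stand in the processing notes of the submitters. The annotation release and the strand setting are not given in the sources used here. Of 54515 rows 633 exact duplicates were removed. All values were whole multiples of 1 read within 0.001 (100% per library), so that reads were recovered.

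Log2(value + 1) was tested with limma 3.58.1 (robust, with trend) in R 4.3.3, in 1 fit of all 4 group means to the 12 libraries, for the 13392 genes that reached a value of 10 in 3 or more libraries, with Benjamini-Hochberg adjustment. Fold changes on this scale understate those of low genes. edgeR 4.0.16 and DESeq2 1.42.0 on the recovered reads were among the alternatives. In simulated counts for Ctrl-TAC against Ctrl-Sham (13165 genes), 88% of 100 genes changed 2-fold and 100% of 100 changed 4-fold were recovered, with 3.09% false calls. These shares do not cover the other comparisons or changes under 2-fold, and all changes of the regulators between groups were under 2-fold. GC content and exon length came from GENCODE M21 on GRCm38 (longest coding transcript, all exons), GC content for 13264 genes tested, and promoters from RefSeq. The GC correction removed a loess fit (span 0.5) from each library.

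The 10 genes, the lists and the tests were chosen with earlier results of these data known. Named were all 10 genes, every gene of the family list, and of each other list the 2 most abundant and the 2 with the smallest p in Ctrl-TAC against Ctrl-Sham and in CIP-OE-TAC against Ctrl-TAC. Vegfa, Acot1, Slc27a1, Mef2c, Mef2d and the pair of Ppargc1a and Perm1 were named after their values were seen. Some genes of the lists are counted but not reported by name here. Groups are called not overlapping gene by gene, and the share of all genes for which this holds was not counted. The labels give no batch, and libraries of a group differed by more than sampling noise. The p-values of limma rest on 1 estimate of the spread per gene, shared by the 4 groups of 3 mice. A comparison without Ctrl-TAC thus also carries the spread within Ctrl-TAC. For Ppargc1a the SD was 69.2% of the mean in Ctrl-TAC and 7.19% in Ctrl-Sham, and its standard error was 0.369 in both comparisons with Ctrl-Sham as the base, Ctrl-TAC and CIP-OE-Sham.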

Additional observations from a re-analysis of the deposited data

Results flagged for a closer look

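Before GC correction, the change of Nrf1 after TAC differed between the genotypes by a test of the difference itself. The interaction was -1.14 (standard error 0.307, adjusted p = 0.0225, limma), with a rise in 3 of 3 Ctrl-TAC libraries above all Ctrl-Sham libraries and 3 of 3 CIP-OE-TAC libraries below all CIP-OE-Sham libraries. After GC correction it was -1.05 (adjusted p = 0.124, limma), and it missed the threshold without any 1 of Ctrl_Sham_4033, Ctrl_TAC_3586, KI_Sham_3737 and KI_TAC_3579, passing in 16 of 23 alternative fits. The counts behind it are low, 23 to 67 reads per library. It holds a difference of 0.64 between the sham groups and of -0.51 between the TAC groups, CIP-OE against Ctrl, neither of which passed.

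For Rxra the libraries of the 2 genotypes lay on opposite sides of their sham groups after TAC: all Ctrl-TAC libraries (343, 368 and 422 normalized counts) lay above all Ctrl-Sham libraries and all CIP-OE-TAC libraries (404, 340.4 and 345) below all CIP-OE-Sham libraries. Neither change passed (0.20, adjusted p = 0.197, and -0.25, adjusted p = 0.419, limma), and after GC correction both values were negative, -0.41 (adjusted p = 0.0264) in controls and -0.32 (adjusted p = 0.230) in CIP-OE mice. The interaction was -0.45 (standard error 0.173), and the difference did not pass the test (adjusted p = 0.0936, limma). After GC correction it was 0.086 (adjusted p = 0.886, limma).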

How the results depend on the processing

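Over 25 alternative fits, 1383 of 1484 values of the regulators kept their direction and their side of the threshold, 21 lost the threshold, 22 gained it and 58 changed sign, 2 of these from a value that had passed (Esrra in CIP-OE-TAC against Ctrl-TAC). The cause of these changes was not tested. Most of the 1484 values belong to results that had not passed, so the total says little about the calls. Of the calls after TAC in controls, Nrf1 passed again in 24 of 24 fits, Tfam in 23 of 25 and Esrrg in 18 of 25. Esrra in CIP-OE-TAC against Ctrl-TAC passed again in 18 of 25, and the interaction of Nrf1 in 16 of 23.

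After GC correction the sign changed in Ctrl-TAC against Ctrl-Sham for Ppargc1a (0.22), Ppargc1b (-0.40), Esrra (-0.63) and Rxra (-0.41), and with GC and length correction to 0.24, -0.38, -0.59 and -0.35. In CIP-OE-TAC against Ctrl-TAC it changed for Ppargc1a (-0.12), Ppargc1b (0.35), Esrra (0.10), Rxra (0.35), Tfam (-0.020) and Perm1 (0.074), and with GC and length correction to -0.14, 0.32, 0.057, 0.29, -0.010 and 0.068, with Esrrg at -0.015. In CIP-OE-TAC against Ctrl-Sham it changed for Ppargc1a (0.10), Ppargc1b (-0.052) and Rxra (-0.051), and with length to 0.10, -0.056 and -0.066. In the interaction it changed for Ppargc1a (-0.42), Esrra (0.31), Esrrb (0.20) and Rxra (0.086), and with length to -0.43, 0.28, 0.16 and 0.043, with Esrrg at -0.00049. With edgeR and DESeq2, Ppara in CIP-OE-Sham against Ctrl-Sham stood at 0.021 and 0.023 and the interaction of Ppargc1a at -0.13 and -0.14. With quantile normalization Ppargc1a in CIP-OE-TAC against Ctrl-Sham stood at 0.0065.

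Leaving out 1 library at a time gave, in CIP-OE-Sham against Ctrl-Sham, -0.19 to 0.20 for Ppara and -0.11 to 0.14 for Esrra. In CIP-OE-TAC against Ctrl-TAC it gave -0.19 to 0.49 for Ppara, -0.0067 to 0.79 for Ppargc1a, -0.097 to 0.12 for Esrrb, -0.13 to 0.028 for Rxra and -0.20 to 0.043 for Perm1. It gave -0.18 to 0.040 for Tfam in CIP-OE-TAC against CIP-OE-Sham, -0.078 to 0.025 for Ppargc1a in CIP-OE-TAC against Ctrl-Sham, and for the interaction -0.18 to 0.50 for Ppara and -0.18 to 0.62 for Ppargc1a.

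Regulators higher in Ctrl-TAC than in Ctrl-Sham numbered 2 in place of 1 with no filter, edgeR, DESeq2 or quantile normalization, and 1 to 3 without single libraries, while 1 to 3 were lower. Of all genes 2732 of 25627 were higher with no filter, and of 13392 genes 2872 with edgeR, 2715 with DESeq2 and 2550 with quantile normalization. Without single libraries 2238 to 2805 of all genes were higher and 2084 to 2716 lower. In CIP-OE-TAC against Ctrl-TAC 0 in place of 1 were lower after either GC correction, beside 201 and 219 of all 13264 genes. Without single libraries 0 to 1 were lower, beside 626 to 1276 of all genes, and 0 to 1 higher, beside 498 to 1388. With the variance trend of limma left out the 1 lower regulator was Nrf1 (adjusted p = 0.0478) in place of Esrra (adjusted p = 0.0728). CIP-OE-TAC against Ctrl-Sham gave 1 in place of 0 lower after either GC correction, beside 353 and 387 of all 13264 genes. In the interaction 0 in place of 1 were lower with no filter, a filter of 50 or either GC correction. Of all genes 651 of 25627, 836 of 9394, and 53 and 64 of 13264 were lower there. Without single libraries 0 to 2 were lower, beside 420 to 847 of all genes, and 0 to 1 higher, beside 290 to 907. Nrf1 could not be tested with the filter of 50. No paired analysis was possible because the groups share no animal numbers. With 3 mice per group and 23 reads of Nrf1 in the lowest library, small differences were not detectable.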
